A study of Mus musculus with 2 samples.

Results

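Meningeal and perivascular fibroblasts were taken as the cell barcodes in which at least 3 of 8 fibroblast genes (Dcn, Lum, Col1a1, Col1a2, Col3a1, Slc6a13, Slc22a6 and Igf2) and at most 1 of 10 genes of other brain cells (Cldn5, Ly6c1, Cx3cr1, Csf1r, Mog, Aqp4, Kcnj8, Myh11, Cspg4 and Folr1) were detected. The gate held 146 of 28586 barcodes. Of these, 34 were among the 7003 barcodes of the EMF_AuNPs library and 112 among the 21583 barcodes of the control library. These barcodes were chosen by the detection of the gate genes, so the levels of those genes within the gate are given as a description.

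Hippocampal cells of male C57BL/6 mice were dissociated with papain and captured with the 10x droplet method, which counts captured RNA molecules by unique molecular identifiers (UMIs). The labels give an age of 6 months for both groups, and the titles speak of an aged brain. Mice of the EMF_AuNPs library received gold nanoparticles by injection into the hippocampus and spent 3 weeks in the electromagnetic field of Helmholtz coils, and those of the control library are labelled Saline. Whether control mice were kept in the coils as well is not clear from the protocol, nor do the sources used here give how many animals went into each library. Each group has 1 library, so no test was made, no difference below has a replicate check, and the treatment cannot be told apart from any other difference between the 2 libraries. Intervals below are 95% intervals that cover counting error only.

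Fibroblasts of the brain lie in the meninges (pia, arachnoid and dura) and around larger vessels, in the perivascular space. They make fibrillar collagens, small leucine-rich proteoglycans and basement membrane proteins, and they carry transporters and retinoic acid enzymes that set them apart from pericytes and smooth muscle cells. Pial, arachnoid and dural fibroblasts differ in the genes they express.

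To show the regulatory sequence next to the genes the results turn on, the 250 bases before the transcription start are given for Col1a2, a type I collagen chain and gate gene, for Coch, which encodes the secreted protein cochlin and was high in one group of fibroblasts described below, and for Ptgds, the prostaglandin D2 synthase, and Vtn, the adhesive glycoprotein vitronectin, which were high in the other. The sequences are RefSeq's on GRCm38.p6, 5′ to 3′ on the gene's strand, and capitals mark 3 promoter motifs, searched on either strand. The first is TATAAA, called the TATA box below. The second, CCAAT, is a common upstream element and is called the CAAT box. The last of them is GGGCGG, which Sp-family factors can bind and which is called the GC box.
Col1a2, chr6:4505368-4505617, plus strand: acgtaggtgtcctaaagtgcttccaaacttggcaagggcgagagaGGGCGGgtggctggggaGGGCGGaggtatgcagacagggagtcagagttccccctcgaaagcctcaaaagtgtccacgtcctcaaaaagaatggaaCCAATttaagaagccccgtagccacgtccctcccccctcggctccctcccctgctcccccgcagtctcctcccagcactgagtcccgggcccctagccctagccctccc
Coch, chr12:51593091-51593340, plus strand: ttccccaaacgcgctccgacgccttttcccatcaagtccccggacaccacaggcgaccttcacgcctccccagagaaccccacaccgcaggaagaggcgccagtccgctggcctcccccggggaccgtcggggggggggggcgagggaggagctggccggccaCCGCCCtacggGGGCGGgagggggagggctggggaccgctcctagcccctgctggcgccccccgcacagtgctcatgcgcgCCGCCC
Ptgds, chr2:25469750-25469999, minus strand: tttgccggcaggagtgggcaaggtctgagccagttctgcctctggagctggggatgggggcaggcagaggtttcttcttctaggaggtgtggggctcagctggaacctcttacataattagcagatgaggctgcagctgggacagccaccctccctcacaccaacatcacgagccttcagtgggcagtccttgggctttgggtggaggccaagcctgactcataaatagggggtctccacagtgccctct
Vtn, chr11:78498870-78499119, plus strand: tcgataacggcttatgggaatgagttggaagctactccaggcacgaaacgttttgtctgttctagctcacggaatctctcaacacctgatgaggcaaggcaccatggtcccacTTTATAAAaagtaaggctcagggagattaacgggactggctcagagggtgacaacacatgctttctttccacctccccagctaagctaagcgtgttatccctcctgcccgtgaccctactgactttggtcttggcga
Among 32851 RefSeq windows of this length, 12.4% held the TATA box, 33.9% the CAAT box and 32.7% the GC box. The Col1a2 window held 1 CAAT box and 2 GC boxes, and the Coch window, with 74.8% G or C, held 3 GC boxes. The Vtn window held 2 overlapping TATA box matches, 1 on each strand, and the Ptgds window held none of the 3 motifs. RefSeq's span of the Coch gene begins at 51593283, and that of Ptgds, on the minus strand, at 25470110. The Coch window thus lies partly and the Ptgds window wholly within the gene's span, before a start farther inside it. A match is a run of letters, and none of these windows was measured here.

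Fibroblasts were rare in both libraries. They made up 0.486% of EMF_AuNPs barcodes (interval 0.336 to 0.678%) and 0.519% of control barcodes (0.427 to 0.624%), a difference of -0.0334 percentage points (-0.207 to 0.178). The gated barcodes held 95802 UMIs in EMF_AuNPs and 234379 in control, with medians of 2796 and 1749 UMIs per barcode, against 2310 and 1904 over the whole libraries. The libraries shared 38 barcode sequences, 0 of them in the gate. At the edge of the gate, barcodes with exactly 3 gate genes carried 3106 CPM (UMIs of a gene per 1e6 UMIs of the summed barcodes) of 16 other fibroblast genes in EMF_AuNPs and 2284 CPM in control, while barcodes with 2 gate genes, just outside, carried 566 and 472 CPM. Barcodes left out for carrying 2 exclusion genes had 2410 CPM in EMF_AuNPs and 2338 CPM in control.

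The label was checked with those 16 fibroblast genes, which the gate did not use. They summed to 4374 CPM (interval 3965 to 4813) in gated barcodes of EMF_AuNPs and 3644 CPM (3403 to 3896) in those of control, against 178 and 133 CPM outside the gate. Other cell classes were taken only from barcodes outside the fibroblast gate, by 3 or more markers of a cell type and more than of any other. Pericyte barcodes had 982 CPM in EMF_AuNPs and 918 CPM in control, smooth muscle barcodes 1100 and 793 CPM, and endothelial barcodes 157 and 171 CPM. Biglycan (Bgn), a matrix proteoglycan, reached 1180 CPM in EMF_AuNPs fibroblasts and 977 CPM in control fibroblasts. Serping1, the C1 inhibitor, stood at 835 and 572 CPM, and Pcolce, which enhances procollagen cleavage, at 793 and 504 CPM. Pdgfra, a growth factor receptor that marks fibroblasts, stood at 334 CPM in EMF_AuNPs and 452 CPM in control. Its detection in 50% and 41.1% of gated barcodes compares with 1.06% and 0.913% of microglia barcodes, which should lack it and had medians of 1651 and 1615 UMIs. Col6a3 was at 0 UMIs in EMF_AuNPs and 4 in control.

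**Figure D1:**
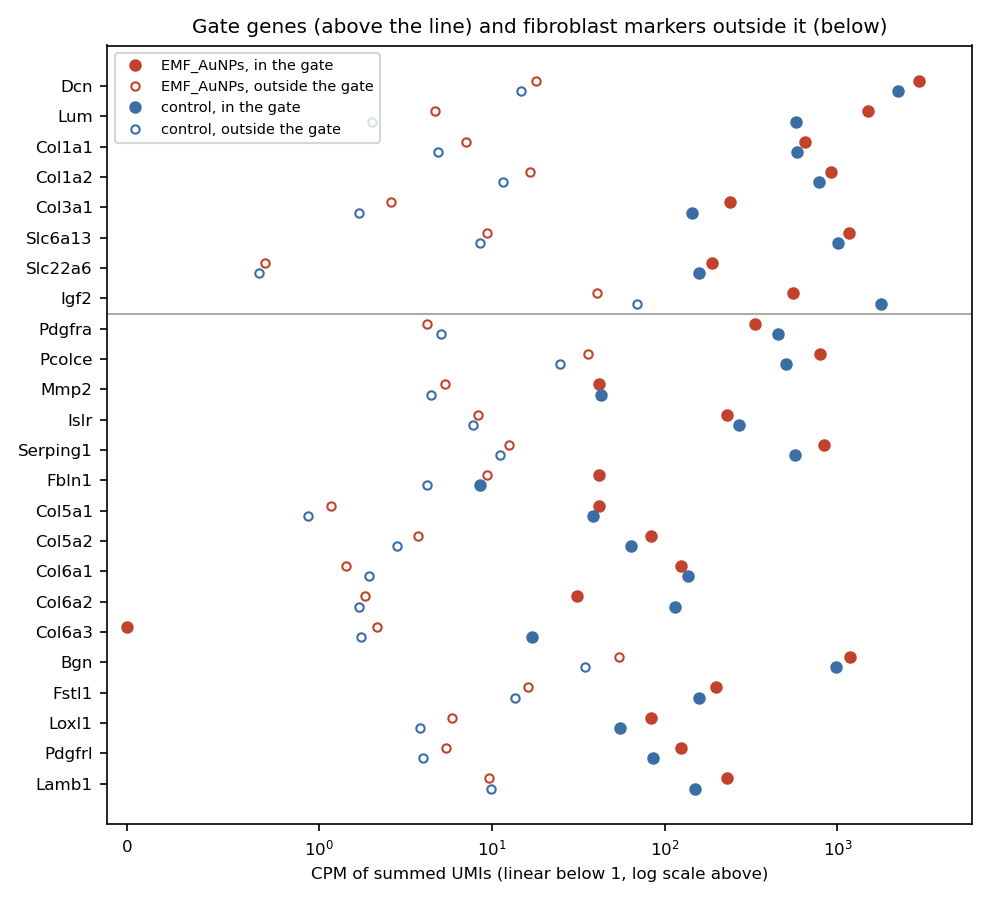
Summed level in CPM (linear below 1, log scale above) of the 8 gate genes above the line and of 16 other fibroblast genes below it, in EMF_AuNPs (red) and control (blue), inside the gate (filled) and outside (open). Filled points lie right of the open points of their library for every gene except Col6a3 in EMF_AuNPs, at 0 in the gate.

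Among the gate genes, the fibril-binding proteoglycan decorin (Dcn) was the most abundant in UMIs, at 2975 CPM in EMF_AuNPs and 2236 CPM in control. It was detected in 97.1% of gated EMF_AuNPs barcodes and 86.6% of gated control barcodes, against 1.53% and 1.63% of microglia barcodes. The chains of type I collagen did not pass 1.5-fold over the whole gate, with Col1a1 at 647 CPM in EMF_AuNPs and 585 CPM in control and Col1a2 at 919 and 785 CPM. Within the Mgp groups defined below, the log2 ratio of EMF_AuNPs over control was 0.68 (0.21 to 1.13) in Mgp-low and -0.34 (-1.05 to 0.35) in Mgp-high barcodes for Col1a2, and 0.30 and 0.15 for Col1a1, with intervals that include 0. The GABA transporter gene Slc6a13 had 1159 CPM in EMF_AuNPs and 1003 CPM in control, and the organic anion transporter gene Slc22a6 had 188 and 158 CPM. Col3a1, the type III collagen chain, had 23 UMIs (240 CPM) in EMF_AuNPs and 34 UMIs (145 CPM) in control, a log2 ratio of EMF_AuNPs over control of 0.72 whose interval (-0.10 to 1.53) includes 0. Lumican (Lum), another collagen-binding proteoglycan, and Igf2, an imprinted growth factor, had intervals that exclude 0 and ratios past 1.5-fold. Both helped choose the barcodes, so these ratios are a description. Lum had 143 UMIs (1493 CPM) in EMF_AuNPs and 135 UMIs (576 CPM) in control, a log2 ratio of 1.37 (interval 1.02 to 1.72). Igf2 had 53 UMIs (553 CPM) in EMF_AuNPs and 421 UMIs (1796 CPM) in control, a log2 ratio of -1.70 (-2.14 to -1.28). Outside the gate the log2 ratio of Lum was 0.91 and that of Igf2 was -0.76, so both leaned the same way, by less, in the RNA of other barcodes. Those include 34 EMF_AuNPs and 86 control barcodes with 3 or more gate genes that were left out for their exclusion genes. Which of the outside barcodes set these ratios was not tested. Igf2 was detected in 2.17% of EMF_AuNPs and 5.02% of control microglia barcodes. After thinning every barcode to 1000 UMIs, which left 24 EMF_AuNPs and 88 control barcodes, Lum was detected in 66.7% and 38.6% of them and Igf2 in 45.8% and 70.5%.

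The gated barcodes fell into 2 groups by Mgp, which encodes matrix Gla protein, an inhibitor of tissue calcification. Of the 146 barcodes, 98 had 0 Mgp UMIs, 18 had 1 to 4, 0 had 5 to 8, 5 had 9 to 20 and 25 had over 20. The division at 5 Mgp UMIs was chosen after these values were seen, and the genes that differ across it are a description. The Mgp-high group held 10 of 34 gated EMF_AuNPs barcodes (29.4%, 15.1 to 47.5%) and 20 of 112 gated control barcodes (17.9%, 11.3 to 26.2%), a difference of 11.6 percentage points (-3.42 to 29.4) whose interval includes 0. These barcodes were deeper, with medians of 5044 UMIs in EMF_AuNPs and 3454 in control, against 2030 and 1571 in the Mgp-low group. They held 52.5% of the gated UMIs in EMF_AuNPs and 32.1% in control. One exclusion gene was present in 9 of 10 Mgp-high barcodes of EMF_AuNPs and 10 of 20 of control, and in 9 of 24 and 45 of 92 Mgp-low barcodes. The 16 fibroblast genes outside the gate were at like levels in both groups, 4296 CPM in EMF_AuNPs and 3680 CPM in control for Mgp-high and 4459 and 3626 CPM for Mgp-low.

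Mgp-high fibroblasts carried a common set of genes in both libraries. Mgp itself, which made the division, was at 15260 CPM in EMF_AuNPs and 15410 CPM in control, against 132 and 176 CPM in Mgp-low barcodes. Coch reached 2347 CPM in EMF_AuNPs and 1501 CPM in control, against 22 and 31.4 CPM in Mgp-low barcodes. Igfbp7, a secreted protein that binds insulin-like growth factors, reached 4515 and 4212 CPM, against 176 and 233 CPM. Alpl, the tissue-nonspecific alkaline phosphatase, was at 1392 CPM in EMF_AuNPs and 1129 CPM in control, and Cygb, the oxygen-binding cytoglobin, at 1134 and 837 CPM. In Mgp-low barcodes of EMF_AuNPs both were at 0 UMIs, where a count of 0 allows up to 65.9 CPM, and in those of control Alpl was at 25.1 CPM and Cygb at 12.6 CPM. Emcn, the sialoglycoprotein endomucin, best known from endothelium, was at 597 CPM in EMF_AuNPs and 505 CPM in control, above the 480 CPM of endothelial barcodes. Crabp1, which binds retinoic acid, differed between the libraries within the Mgp-high group, with 4 UMIs in 2 of 10 EMF_AuNPs barcodes and 49 UMIs in 6 of 20 control barcodes.

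Mgp-low fibroblasts carried Ptgds, Vtn, transporters and genes of retinoic acid synthesis. Ptgds reached 74570 CPM in EMF_AuNPs and 28500 CPM in control, against 935 and 890 CPM in Mgp-high barcodes. It was concentrated in few barcodes, with 2946 of 3395 UMIs in 5 of 24 Mgp-low barcodes of EMF_AuNPs and 1891 of 4534 in 5 of 92 of control. The median Mgp-low barcode held 23 UMIs in EMF_AuNPs and 12 in control. Vtn was at 6941 CPM in EMF_AuNPs and 3155 CPM in control, against 219 and 159 CPM, and pericyte barcodes held more of it, 20870 and 11310 CPM. Slc6a13, Slc22a6 and Igf2 are gate genes that were carried by this group. Slc6a13 had 2262 CPM in EMF_AuNPs and 1458 CPM in control in Mgp-low barcodes, against 159 and 39.9 CPM in Mgp-high barcodes. All 8 Slc6a13 UMIs of the EMF_AuNPs Mgp-high group were in 1 barcode. Aldh1a2, an enzyme that makes retinoic acid, had 483 and 295 CPM in Mgp-low barcodes, with 2 UMIs and 0 UMIs in Mgp-high ones. Bmp7, a bone morphogenetic protein, had 461 CPM in EMF_AuNPs and 277 CPM in control in Mgp-low barcodes and 0 UMIs in Mgp-high barcodes of both libraries, where 0 allows up to 59.7 and 39.9 CPM. Tbx18, a transcription factor of mural and mesenchymal cells, had 593 and 295 CPM in Mgp-low barcodes, against 19.9 and 79.7 CPM. Counting genes with at least 50 UMIs, 14 of 228 in EMF_AuNPs and 19 of 669 in control were at least 4-fold higher in Mgp-high barcodes, and 10 and 33 were at least 4-fold lower.

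**Figure D2:**
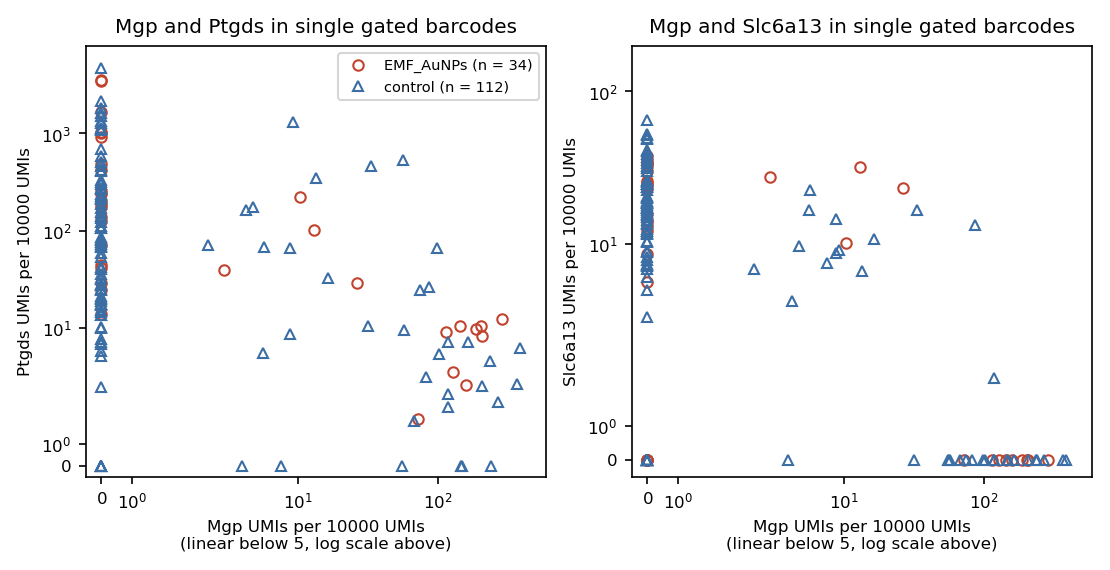
Mgp UMIs per 10000 UMIs (linear below 5, log scale above) against Ptgds (left) and Slc6a13 (right) in each gated barcode, for EMF_AuNPs (red circles, 34) and control (blue triangles, 112). Most barcodes with much Mgp sit low on both other axes, and both libraries have barcodes in each arm.

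**Figure D3:**
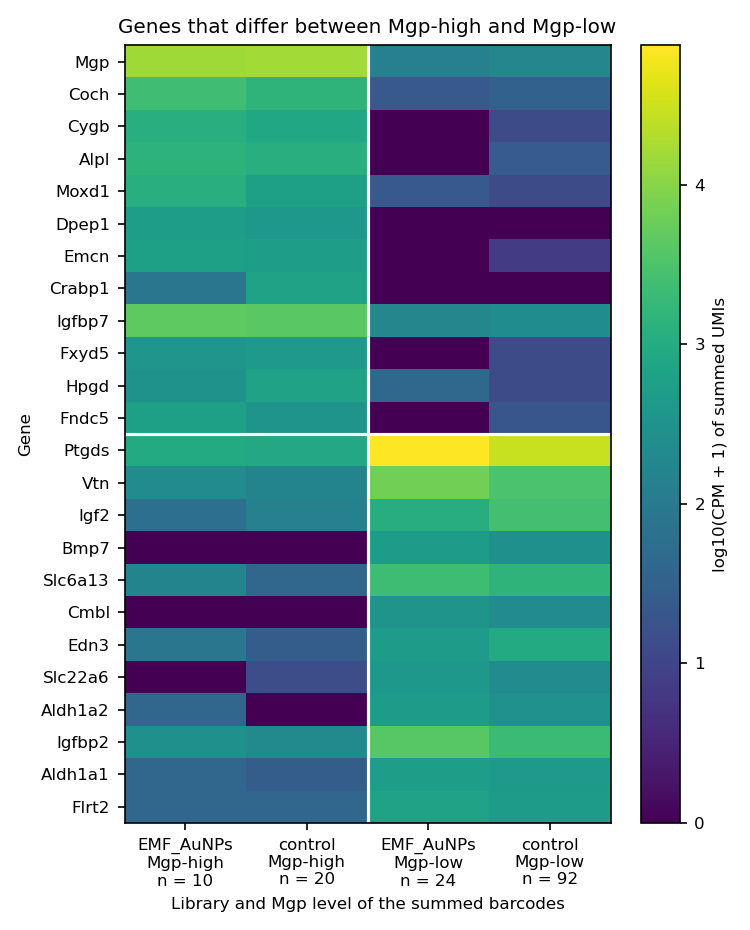
Level, as log10(CPM + 1) of summed UMIs, of 12 genes higher in Mgp-high barcodes (above the line) and 12 lower in them (below), in EMF_AuNPs and control. Hba-a2, Hbb-bs and Ttr, genes of red blood cells and choroid plexus, were left out of the lower set, and in both libraries the genes above the line are brighter on the left and those below it on the right.

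Markers of the meningeal layers were counted over the whole gate and then summed by Mgp group. At least 2 of 6 pial and perivascular markers were detected in 67.6% of EMF_AuNPs and 64.3% of control gated barcodes, and after thinning in 50% and 51.1%. At least 2 of 7 dural markers were detected in 26.5% and 17.9%, and in 33.3% and 18.2% after thinning. This list was carried by Mgp, Alpl and Fxyd5, while Kera was at 0 UMIs in both libraries. At least 2 of 7 arachnoid markers were detected in 14.7% and 5.36%, and after thinning in 4.17% and 3.41%, with Dpp4 and Cdh1 at 0 UMIs in both libraries. The same shares in microglia barcodes were 1.48% and 1.55% for the pial, 2.59% and 2.72% for the dural and 0.264% and 0.0794% for the arachnoid list. Mgp, which made the division, is a dural marker. Without it the other 6 summed to 1830 CPM in EMF_AuNPs and 1568 CPM in control in Mgp-high barcodes, and in Mgp-low barcodes to 0 and 9 UMIs. The pial and perivascular list ran the other way, at 2029 and 1687 CPM in Mgp-high and 3778 and 4079 CPM in Mgp-low barcodes. The arachnoid list stood at 378 and 226 CPM in Mgp-high and 769 and 553 CPM in Mgp-low barcodes. Mgp-high barcodes thus leaned to the dural list, but few of its members carried it, and neither group was given a layer name.

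Fibroblasts of the EMF_AuNPs library were compared with those of the control library over the 1046 genes with at least 50 gated UMIs in all. A gene is called higher or lower here where its log2 ratio of CPM, with 1 CPM added to both, passed 1.5-fold. By this rule 345 genes (33%) were called, 152 higher (14.5%) and 193 lower (18.5%), so a list with about these shares does not stand out. The median log2 ratio of the tested genes was -0.01. With scaling by trimmed means (TMM), which set the ratios 0.14 lower, 98 genes were higher and 252 lower. Since Mgp-high barcodes hold more of the UMIs in EMF_AuNPs, ratios within the Mgp groups are given for the genes described next, and for most others only the ratio over the whole gate.

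Among the genes named by rank, Lum, Cxcl12, Gsn and Ctsl were higher in EMF_AuNPs in the gate and within each Mgp group. Lum is a gate gene, so its ratios are a description. Cxcl12, a chemokine that barrier and stromal cells secrete, had 129 UMIs (1347 CPM) in EMF_AuNPs and 117 UMIs (499 CPM) in control, a log2 ratio of 1.43 (1.06 to 1.80). The ratio of Cxcl12 was 0.84 in Mgp-low and 1.89 in Mgp-high barcodes, while outside the gate, where endothelial cells carry most of it, it was -0.59. Ctsl, the lysosomal protease cathepsin L, had 1921 and 892 CPM (log2 ratio 1.11, 0.81 to 1.40), with 0.71 in Mgp-low and 1.03 in Mgp-high barcodes. Gsn, the actin-severing protein gelsolin, had 731 and 286 CPM (1.35, 0.85 to 1.86), with 1.34 in Mgp-high barcodes and 0.67 in Mgp-low ones, where the interval (-0.28 to 1.57) includes 0. Serpinf1, the secreted inhibitor-family protein PEDF, had 699 CPM in EMF_AuNPs and 282 CPM in control, with ratios of 1.59 in Mgp-low and 0.98 in Mgp-high barcodes. Spp1, osteopontin, had 2025 and 1212 CPM, a log2 ratio of 0.74 in the gate, 0.74 in Mgp-low and 1.52 in Mgp-high barcodes and 2.42 outside the gate.

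Coch, Moxd1, Mgp, Igfbp4 and Igfbp7 were higher in EMF_AuNPs over the whole gate, and most of their UMIs were in Mgp-high barcodes. Within the Mgp groups their ratios differed. Mgp made the division, so its ratios within the groups are a description. The log2 ratio of Mgp was 0.67 (0.54 to 0.80) in the gate, -0.01 (-0.15 to 0.12) in Mgp-high and -0.41 in Mgp-low barcodes. Igfbp7 gave 0.70, 0.10 and -0.40 in the same order, and Igfbp4 0.88, 0.46 and -0.82. Coch kept a ratio of 0.64 (0.26 to 1.03) and Moxd1 of 0.92 (0.33 to 1.52) within Mgp-high barcodes, and each had fewer than 7 UMIs in Mgp-low barcodes of the libraries together.

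Ptgds was higher in EMF_AuNPs, with 3442 UMIs (35930 CPM) against 4601 UMIs (19630 CPM) in control and a log2 ratio of 0.87 (0.81 to 0.94), which was 1.39 in Mgp-low and 0.07 in Mgp-high barcodes. A single EMF_AuNPs barcode held 1261 of its UMIs and a single control barcode 490, and the ratio without the highest barcode of each library was 0.41, short of 1.5-fold. The median was 10 UMIs per gated barcode in EMF_AuNPs and 6 in control. Microglia barcodes also carried it, in 95.7% of EMF_AuNPs and 70.6% of control barcodes. With 0 exclusion genes required, the ratio turned to -0.46.

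Ptn, Rn45s, Sparcl1 and Son were lower in EMF_AuNPs in the gate and in both Mgp groups. Igf2 and Hspa5 were lower in the gate and in Mgp-low barcodes. Son had 501 CPM in EMF_AuNPs and 922 CPM in control. Its log2 ratio was -0.88 in the gate and in Mgp-low barcodes, -0.79 in Mgp-high ones and -0.47 outside the gate. Ptn, the growth factor pleiotrophin, had 285 UMIs (2975 CPM) in EMF_AuNPs and 1786 UMIs (7620 CPM) in control, a log2 ratio of -1.36 (-1.54 to -1.18), with -0.95 in Mgp-low and -1.34 in Mgp-high barcodes and -0.94 outside the gate. Hspa5, the chaperone of the endoplasmic reticulum, had 198 and 632 CPM (-1.67, -2.44 to -0.98), with -1.62 in Mgp-low barcodes and -0.45 outside the gate, and its Mgp-high UMIs (9 and 40) were under the minimum of 50. Igf2, a gate gene whose ratios are a description, gave -1.23 in Mgp-low barcodes (-1.69 to -0.81). In Mgp-high ones it had 3 and 10 UMIs, under the same minimum. Rn45s, a precursor of ribosomal RNA, had 2129 and 4595 CPM, with a ratio of -1.11 in the gate, -0.85 in Mgp-low and -1.28 in Mgp-high barcodes and -0.88 outside the gate. Sparcl1, a matricellular protein also made by astrocytes, had 866 CPM in EMF_AuNPs and 1903 CPM in control, with ratios of -0.82 in Mgp-low barcodes and -0.71 in Mgp-high ones, where the interval (-1.59 to 0.11) includes 0. Edn3, the peptide endothelin 3, had 25 UMIs (261 CPM) and 152 UMIs (649 CPM), nearly all in Mgp-low barcodes, where the ratio was -1.03 (-1.76 to -0.37). Apoe, a lipid carrier, was at -0.55 in the gate and 0.23 outside it, and the nuclear RNA Malat1 at -0.46 and -0.38; neither passed 1.5-fold.

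Over the 303 genes with at least 50 UMIs in each Mgp group, 14 were higher in EMF_AuNPs in both and 16 lower in both. The 14 include the gate gene Lum. Within the Mgp-low group alone 30.6% of 542 tested genes were called (10.3% higher, 20.3% lower), and within the Mgp-high group 27% of 352 (12.2% higher, 14.8% lower). Beside those named above, and chosen after their values were seen, the genes lower in both included the metallothioneins Mt1 and Mt3, small metal-binding proteins. Mt1 had 67 UMIs (699 CPM) in EMF_AuNPs and 357 UMIs (1523 CPM) in control and log2 ratios of -0.60 in Mgp-low and -1.84 in Mgp-high barcodes, against 0.40 outside the gate. Other classes held far more of both, with 8935 CPM of Mt1 in astrocyte and 8957 CPM of Mt3 in ependymal barcodes. Both genes thus missed the 20% level set for genes named by rank. Whether RNA of other cells set their ratios was not tested.

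**Figure D4:**
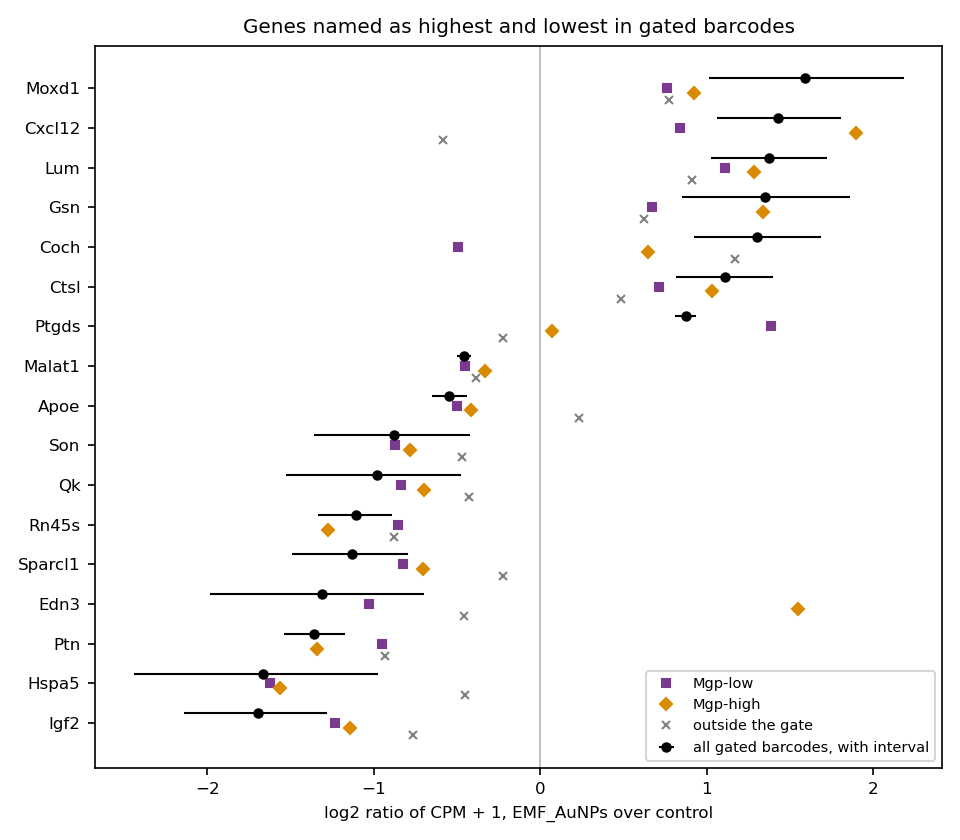
log2 ratio of CPM + 1, EMF_AuNPs over control, of the genes named as highest and lowest, in all gated barcodes (black, with 95% counting intervals), in Mgp-low (squares) and Mgp-high (diamonds) barcodes and outside the gate (crosses). Haemoglobin genes are not drawn, and Lum and Igf2 are gate genes. Coch and Edn3 have gated points on both sides of 0, the one across resting on 6 UMIs for each, and the points of Cxcl12, Ptgds and Apoe outside the gate lie across 0 from those of the whole gate.

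The matrix genes lay on both sides of 0. Of the 25 gene lists with a tested member, 19 had a median that changed sign under at least 1 of 13 alternatives. That of the Wnt pathway changed sign with a filter of 20 UMIs, which is not among the 13. The medians below therefore describe these gated sums only. Of 6 tested collagens outside the gate, 1 was higher (Col15a1, 0.64) and 3 lower, with a median of -0.31. The lower ones were Col4a1, at 428 CPM in EMF_AuNPs and 798 CPM in control, Col4a2, at 271 and 512 CPM, which together form the main network of basement membranes, and Col12a1. Of 10 tested basement membrane genes, 2 were higher and 3 lower (median -0.25), and Lama1, the laminin chain of the pial basement membrane, had 12 UMIs (125 CPM) in EMF_AuNPs and 57 UMIs (243 CPM) in control. In Mgp-low barcodes the ratios of Col4a1 and Col4a2 were -0.55 and -0.57, short of 1.5-fold. Of 4 tested genes of collagen processing, 2 were higher, Pcolce and the collagen chaperone Serpinh1, and 1 was lower, P4hb. Matrix proteases and inhibitors had 3 of 9 higher and 0 lower (median 0.44), those being Ctsl, Serpinf1 and Htra1. Proteoglycans and elastic fibre proteins had 2 of 8 higher, Emilin1 and Ecm1, and 1 lower, Fbln2 (0.32), and adhesive proteins 3 of 5 higher and 1 lower (0.64), with Vtn, Mgp and Spp1 on one side and Sparcl1 on the other. Outside the gate the medians of the same tested genes were -0.09 for these collagens and -0.02 for basement membrane genes. They were 0.38 for proteases and inhibitors, 0.61 for proteoglycans and elastic fibre proteins and 0.69 for adhesive proteins.

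Signalling and barrier genes were measured more thinly. Of 7 tested growth factors and receptors, 0 were higher and 2 lower, Ptn and Vegfb (median -0.15). Of 7 genes of the TGF-beta and BMP pathway, 2 were higher and 0 lower (0.39), with Id2, a target of BMP signalling, at a log2 ratio of 1.93 on 47 UMIs in EMF_AuNPs and 30 in control. Of 14 transcription factors of fibroblasts, 3 were higher and 0 lower (0.33), namely Nr2f1, Nfib and Nfia. Membrane transporters had 0 of 4 higher and 2 lower, Slc22a8 and Slc1a3 (-0.56). Astrocyte barcodes held 2334 CPM of Slc1a3, against at most 691 CPM in an Mgp group of either library. The part of astrocyte RNA in its ratio was not tested. Complement genes had 0 of 3 called, cytokines 1 of 4, namely Cxcl12, and interferon response genes 0 higher and 1 lower (Ly6e) of 6. For MHC class I, 2 of 3 were higher, H2-D1 and H2-K1, each on under 50 UMIs per library, and members of this family share sequence, so their counts are uncertain. The insulin-like growth factor system had 2 of 4 higher and 0 lower (0.59), namely Igfbp4 and Igfbp7. This list leaves out the gate gene Igf2, which was lower (-1.70). Contractile and activation genes had 3 of 10 higher and 0 lower (0.18), and antioxidant and iron genes 2 of 9 higher and 1 lower (0.34). Outside the gate the medians of the same tested genes were 0.11 for growth factors, 0.51 for the TGF-beta and BMP pathway and 0.53 for transcription factors. They were 0.61 for membrane transporters, 0.60 for the insulin-like growth factor system, 0.45 for contractile and activation genes and 0.20 for antioxidant and iron genes.

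The stress lists had medians at or below 0. The list of heat shock proteins and chaperones had 1 of 17 higher and 4 lower (Hspa5, Hspd1, Hsp90aa1 and Canx), with a median of -0.45. The higher one, Xbp1, is a transcription factor placed on this list. In Mgp-low barcodes 0 of 11 were higher and 6 lower (-0.62), and in Mgp-high barcodes 0 of 8 and 2 (-0.30). Of all tested genes, 10.3% were higher and 20.3% lower in Mgp-low barcodes, and 12.2% and 14.8% in Mgp-high ones. Outside the gate the median of the same list was -0.20. All 3 tested genes of the glucocorticoid and metallothionein list, Mt1, Mt2 and Mt3, were lower (-1.12), with a median of 0.40 outside the gate. As given above, other cell classes held far more Mt1 and Mt3 than the gated barcodes. Immediate early genes, which dissociation can induce, had 1 of 7 higher and 1 lower, with a median of -0.05 in the gate, but 0 of 6 higher and 4 lower in Mgp-low barcodes (-1.31) and 2 of 5 higher and 0 lower in Mgp-high ones (0.48). Of 77 tested ribosomal protein genes, 7 were higher and 2 lower (median 0.14, and -0.002 with TMM scaling), against 14.5% higher and 18.5% lower of all tested genes.

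**Figure D5:**
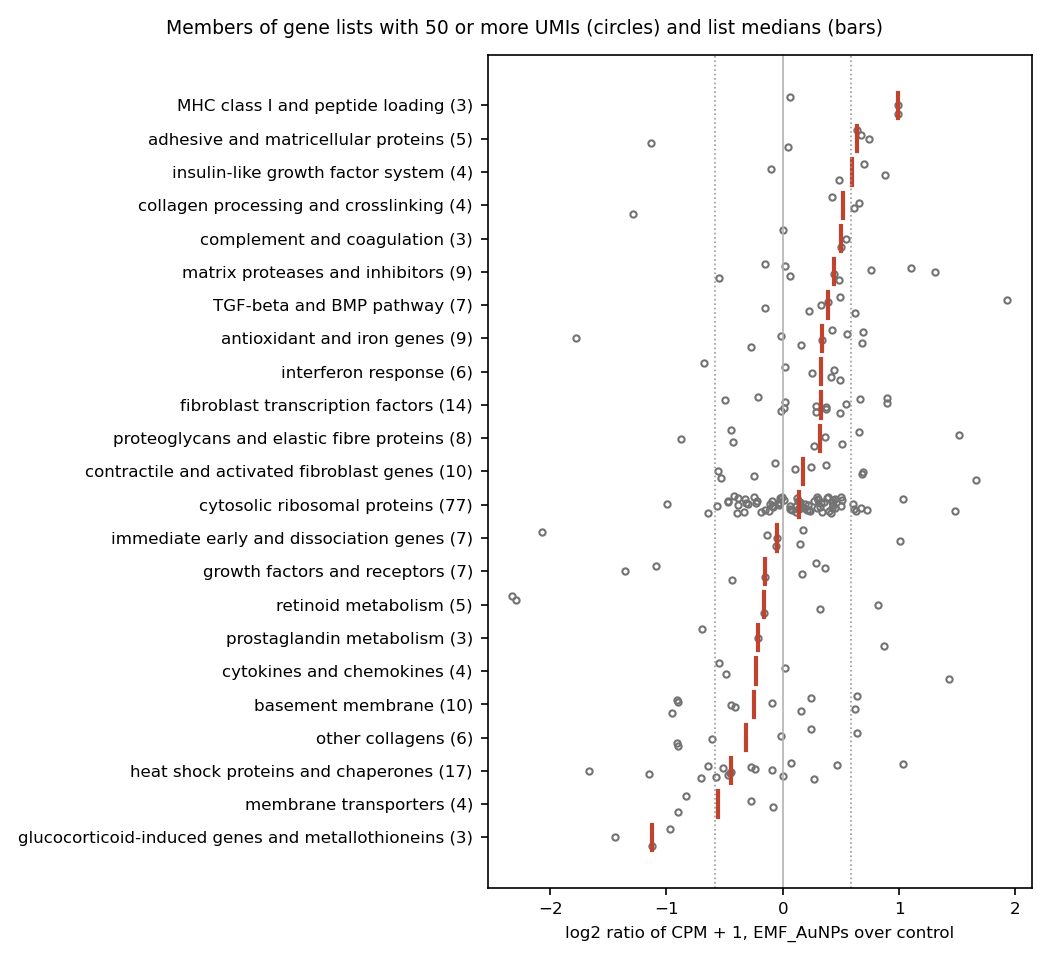
log2 ratio of CPM + 1, EMF_AuNPs over control, for each list member with at least 50 gated UMIs (circles; number in brackets) and the list median (red bar), with dotted lines at 1.5-fold. The 3 metallothioneins lie left of the lower line, and most ribosomal protein genes lie between the lines.

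RNA of other cells was present in gated barcodes and differed between the libraries, and its part in the ratios above was not tested. Red blood cell markers summed to 23670 CPM in EMF_AuNPs and 862 CPM in control, and 1468 of the 2268 EMF_AuNPs UMIs were in 1 barcode, without which the sum was 8629 CPM. The haemoglobin genes were accordingly the highest ranked, with Hbb-bs at a log2 ratio of 5.03 and Hba-a2 at 4.50, against 1.80 and 1.48 outside the gate, and haemoglobin copies share sequence. Choroid plexus markers ran the other way, at 4645 CPM in EMF_AuNPs and 23070 CPM in control, with 3147 control UMIs in 1 barcode and 9894 CPM without it. Oligodendrocyte markers were at 2484 and 5056 CPM, astrocyte markers at 2234 and 3021 CPM, microglia markers at 1921 and 960 CPM, pericyte markers, mostly Vtn, at 3465 and 2483 CPM, endothelial markers at 731 and 568 CPM and smooth muscle markers at 261 and 247 CPM. Lymphocyte markers were at 0 UMIs in EMF_AuNPs and 1 in control. Leaving out the 2 EMF_AuNPs and 11 control barcodes richest in such RNA gave 138 genes higher and 138 lower.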

How the data were processed

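The authors deposited whole-number counts of UMIs per gene and barcode for each library, for which the submitters' processing notes name Cell Ranger 3.0.2, STAR and mm10 (annotation and STAR version not given in the sources used here). Both matrices list 24130 gene symbols, 123 of them joint, and 0 mitochondrial genes, so no filter on mitochondrial share was made; every deposited barcode was used (lowest totals 501 and 500 UMIs in EMF_AuNPs and control). Scrublet (scanpy 1.11.5) called 0 of 7003 EMF_AuNPs barcodes and 3227 of 21583 control barcodes as doublets, which for EMF_AuNPs is no working call, so no doublet was removed. Groups follow the treatment label. The gate was applied to raw UMIs, which were summed per library and divided by the gated total, with no clustering of cells. Intervals are exact Poisson for CPM, Clopper-Pearson for shares, Newcombe for their difference and exact conditional binomial for ratios; a count of 0 allows 3 counts. Ratios were checked on simulated counts. The members and lists were chosen with earlier results of these data known. Named genes were the gate genes, the 10 highest and 10 lowest ratios ranked by the interval bound nearest 0 (genes with at least 100 gated UMIs, in at least 10 barcodes of the higher library and at no less than 20% of the CPM of any other marker-gated class), the 2 such members of each list with the largest ratio, all label and layer markers and the 15 genes that most set gated barcodes apart; genes outside this rule were chosen after their values were seen. Alternatives used edgeR 4.0.16 (TMM) under R 4.3.3; Python 3.11.15 was used otherwise. The result of 1 named gene and the counts of its list are not reported here.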

Additional observations from a re-analysis of the deposited data

How the results depend on the processing

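The difference in the share of gated barcodes stayed within its interval under all 7 alternatives run. Of 152 genes higher and 193 lower, TMM scaling left 98 higher, subtracting the ratio outside the gate 92 higher, requiring 0 exclusion genes 42 higher and 80 lower, keeping fewer than 5 Mgp UMIs 56 and 110, keeping 5 or more 43 and 52, a filter of 200 UMIs 30 and 21, and no filter 3353 and 4931, where fewer barcodes or another number of tested genes set the counts. Of 46 called named genes, 18 changed sign under at least 1 of 13 alternatives, 12 of them on at least 50 UMIs under that setting and 6 on fewer UMIs in every such setting. With 0 exclusion genes, which keeps 1 of 10 Mgp-high barcodes of EMF_AuNPs, the log2 ratio was -2.70 for Moxd1, -4.12 for Coch, -0.46 for Ptgds, -3.85 for Mgp, -8.79 for Alpl, 0.51 for Col4a1, -3.00 for Igfbp4, -2.45 for Igfbp7, 0.41 for Fabp5, -2.66 for Tgfbi, -0.65 for Lgals1, -0.014 for Rpl9 and -7.72 for Dpep1. For Alpl and Dpep1 EMF_AuNPs had 0 UMIs there, as for Alpl with fewer than 5 Mgp UMIs, so the 1 CPM added sets these values and they give no size. With fewer than 5 Mgp UMIs it was -0.50 for Coch, -0.41 for Mgp, -4.71 for Alpl, -0.82 for Igfbp4 and -0.40 for Igfbp7. Each of these values rests on fewer than 50 UMIs. With 5 or more Mgp UMIs the ratio was 1.55 for Edn3 and for Lama1, -0.015 for Mgp, -0.18 for Tgfbi and 0.035 for Cemip. With the ratio outside the gate subtracted it was -0.015 for Mgp, -0.18 for Serpinh1, -1.68 for Spp1, -0.063 for Igfbp4 and -0.10 for Igfbp7, and with barcodes weighted equally 0.38 for Fabp5. The median of adhesive proteins turned to -0.27 with the outside ratio subtracted and to -0.12 in Mgp-high barcodes, and that of the insulin-like growth factor system to -0.082 with the outside ratio subtracted and to -2.33 with 0 exclusion genes. Medians short of 1.5-fold turned too: with 0 exclusion genes that of the TGF-beta and BMP pathway was -1.93 and of interferon response -1.44 (2 genes tested each), of membrane transporters 0.51 and of complement -0.24. In all, 19 of 25 lists turned under at least 1 of the 13 alternatives, 10 of them with the outside ratio subtracted. A filter of 20 UMIs, run for list medians besides the 13, turned that of the Wnt pathway from -0.30 to 0.23. The medians of heat shock proteins and of metallothioneins did not turn under any alternative run for them. Beyond these constructions the cause was not tested. The planned removal of called doublets was not run, since the caller marked 0 barcodes in EMF_AuNPs; leaving out the highest doublet scores, the Mgp groups and the barcodes rich in other RNA were alternatives chosen after seeing the data. No paired analysis was possible because each group has 1 library. Of 1046 tested genes, 542 reached 50 UMIs in the Mgp-low and 352 in the Mgp-high group, and ratios on fewer are imprecise: Edn3 and Lama1 above rest on 4 UMIs in EMF_AuNPs and 2 in control.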
